A study of Mus musculus with 12 samples.

Results

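Bcor encodes a corepressor that serves as the scaffold of PRC1.1, a variant Polycomb repressive complex, and its mRNA was far more abundant in the RNA captured near the keratinocyte cortex than in the rest of the translated RNA. The genes described here are Bcor and 7 further genes of that complex, Bcorl1, Pcgf1, Kdm2b, Rnf2, Ring1, Usp7 and Rybp, found by their gene names among the 54532 genes of the count table. All 8 were present and all 8 passed the filter on low counts, which kept 13571 genes. Bcor was chosen by its high cortical-to-total log2 fold change in these libraries, in unwounded and in wounded cells, so its cortical-to-total values are given as a description with no test. The 7 partners were listed for their place in the complex. The question asked of them was whether the cortical excess of Bcor was shared.

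The libraries came from mouse keratinocytes whose genotype label is WT with DP-BirA(1-584), a fusion of residues 1 to 584 of desmoplakin, a desmosomal plaque protein, to the biotin ligase BirA. Cells of every group were grown to confluence, then given calcium, which induces differentiation, and doxycycline at 2 µg/mL, which induces the fusion, and received biotin for 16 h. The translating part of a sucrose gradient was passed over neutravidin, which divided it into a bound, cortical fraction and a depleted remainder called the total fraction. Both fractions were taken from cells left unwounded and from wounded cells, which made 4 groups with 3 libraries each. A library without the fusion or without biotin was not analysed here, so the values compare bound with depleted RNA and do not measure background binding to the resin. The titles call the replicates biological, but whether each was a separate culture is not given in the labels, so the p-values measure the spread between these libraries. The source of the cells, the number of clones and the promoter of the fusion construct are likewise not given in the labels.

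Polycomb repressive complex 1 places ubiquitin on histone H2A through a RING1 or RNF2 catalytic subunit paired with one of several PCGF proteins. The complex named PRC1.1 is built around PCGF1, carries BCOR or its paralog BCORL1, and is brought to unmethylated CpG islands by KDM2B. RYBP or its paralog YAF2, the adaptor SKP1 and the deubiquitinase USP7 complete it. Polycomb repression is known in epidermis for holding back differentiation and non-epidermal genes, but the present measurements concern mRNA abundance in translating fractions, not chromatin.

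Total counts ran from 8980013 to 23457548 per library. Replicate 1 of the wounded total group stood apart: it had counts for 13117 genes against 14393 to 16867 elsewhere, and 39.6% of the genes expected at 10 to 20 counts were at 0, against 0.522% to 14.3% in the other libraries. Results that change without it are given with and without it. All 8 keratinocyte markers listed had counts in every group, Krt5 and Krt14 at the highest level. Of the differentiation keratins listed, Krt1 reached at most 44 counts, whereas Krt10 had 177 to 553 counts per library. The 8 keratinocyte markers summed to 8190 to 9420 CPM in unwounded total and 12700 to 12900 CPM in unwounded cortical libraries. After wounding they summed to 14500 to 17200 CPM in total and 18000 to 18400 CPM in cortical libraries. Most of that sum was Krt5 and Krt14, which averaged 5960 and 7670 CPM over the 12 libraries, against 24 CPM for Krt10. The sum therefore moved with both fraction and wounding, and its part in the results below was not tested. Summed markers were at most 6.47 CPM for fibroblasts, 2.27 for melanocytes, 1.87 for endothelial cells and 0.285 for leukocytes, with Dcn, Tyr, Tyrp1, Lyz2, Tyrobp and Cdh5 at 0 counts in all libraries. In such bulk samples, fewer cells of a type and less RNA per cell cannot be told apart.

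Levels are given as CPM, counts scaled to a common library size with TMM factors, and differences as log2 fold changes with their standard error (SE) and 95% interval. Tests were edgeR quasi-likelihood tests, two-sided, with Benjamini-Hochberg adjustment over the 13571 genes, and a gene is called changed at an adjusted p under 0.05. Positions are on mm10 and match the GRCm38 annotation.

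Bcor (ENSMUSG00000040363, chromosome X, 12036740 to 12160355, minus strand) stood at 9.26, 6.44 and 6.30 CPM in the unwounded total libraries and at 34.5, 35.0 and 36.5 CPM in the unwounded cortical libraries. After wounding it stood at 5.1, 5 and 5.64 CPM in the total and at 16.7, 15.1 and 25.1 CPM in the cortical libraries. Every cortical library was above every total library, and the counts behind these values ran from 86 to 882. The cortical level was 4.79 times the total level in unwounded cells (log2 fold change 2.26, SE 0.21, interval 1.81 to 2.71) and 3.61 times in wounded cells (log2 fold change 1.85, SE 0.22, interval 1.40 to 2.31). Among all genes tested, 57 had a larger cortical log2 fold change than Bcor in unwounded and 220 in wounded cells.

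**Figure D1:**
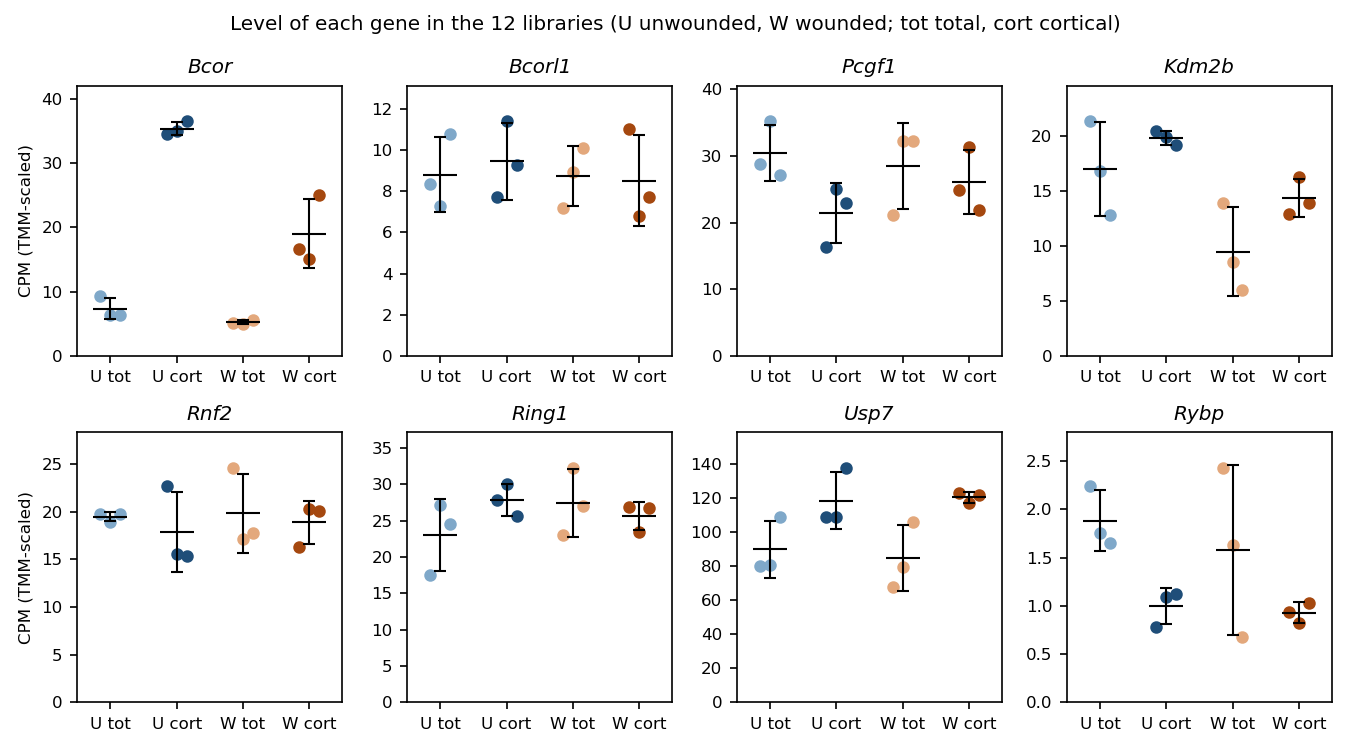
TMM-scaled CPM of the 8 genes in each of the 12 libraries, one panel per gene; points are single libraries in 4 groups, horizontal lines are group means and error bars are SD (n = 3). Bcor alone shows cortical libraries far above the total libraries in both treatments, from 34.5 to 36.5 against 6.30 to 9.26 CPM in unwounded cells.

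The closest comparison within the complex was Bcorl1, the paralog that can take the place of BCOR. Bcorl1 (ENSMUSG00000036959, chromosome X, 48341358 to 48408049, plus strand) has a gene length of 8516 bases in the count table, against 8666 for Bcor, and longest annotated coding sequences of 5343 and 5277 bases. It stood at 8.34, 7.28 and 10.8 CPM in unwounded total, 7.70, 11.4 and 9.25 in unwounded cortical, 7.18, 8.93 and 10.1 in wounded total and 11, 6.79 and 7.74 CPM in wounded cortical libraries. All 4 groups overlapped. Its cortical log2 fold change was 0.10 in unwounded (SE 0.26, interval -0.44 to 0.64, adjusted p = 0.882) and -0.03 in wounded cells (SE 0.25, interval -0.57 to 0.50, adjusted p = 0.954), and the sign of both values changed with the processing. Those intervals leave room for a rise of up to 0.64 or a fall of up to -0.57, and both lie below the intervals of Bcor. That separation is a description, since Bcor was chosen by its value in these comparisons.

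Because the scaffolds are nearly equal in length, their balance can be read per kilobase. The Bcor-to-Bcorl1 ratio of CPM per kilobase was 0.575 to 1.09 in the unwounded total libraries and 3.03 to 4.4 in the unwounded cortical libraries. It was 0.550 to 0.698 in wounded total and 1.49 to 3.18 in wounded cortical libraries. Bcorl1 exceeded Bcor per kilobase in 5 of the 6 total libraries and Bcor exceeded Bcorl1 in all 6 cortical libraries, a description that follows from the value by which Bcor was chosen.

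Pcgf1, the RING-finger subunit that defines PRC1.1, pointed the other way in unwounded cells without passing the test. Pcgf1 (ENSMUSG00000069678, chromosome 6, 83077869 to 83080855) stood at 28.8, 35.2 and 27.2 CPM in unwounded total and 16.4, 25.1 and 22.9 CPM in unwounded cortical libraries, so that every cortical value was below every total value. The log2 fold change was -0.51 (SE 0.20, interval -0.94 to -0.09, adjusted p = 0.105). Without wounded total replicate 1, which is in neither group compared, it was -0.52 with an edgeR adjusted p of 0.0233. Over all libraries edgeR also called it lower with no filter (-0.50, adjusted p = 0.0477) and with a replicate block (-0.52, adjusted p = 0.0472). In wounded cells Pcgf1 stood at 21.1, 32.2 and 32.2 CPM in the total and 24.9, 31.3 and 21.9 CPM in the cortical libraries. Those groups overlapped, with a log2 fold change of -0.13 (SE 0.20, interval -0.55 to 0.29, adjusted p = 0.722) whose sign changed under scaling by library size alone (0.11) and with the gene length trend removed (0.07).

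Kdm2b, a histone demethylase with a CpG-binding zinc finger, stood at 21.3, 16.8 and 12.8 CPM in unwounded total and 20.4, 19.9 and 19.1 CPM in unwounded cortical libraries. After wounding Kdm2b (ENSMUSG00000029475, chromosome 5, 122870665 to 122989823) stood at 13.9, 8.53 and 5.95 CPM in the total and 12.9, 16.2 and 13.9 CPM in the cortical libraries. The highest total value after wounding, 13.9 CPM, was that of replicate 1, the library that stood apart. Its cortical log2 fold change was 0.22 in unwounded (SE 0.25, interval -0.31 to 0.75, adjusted p = 0.673) and 0.59 in wounded cells (SE 0.26, interval 0.05 to 1.14, adjusted p = 0.134). Without wounded total replicate 1 the wounded value was 0.98 with an edgeR adjusted p of 0.00224, and voom with library quality weights, over all 12 libraries, called it higher too (0.80, adjusted p = 0.00785). From gene start to gene end, the Kdm2b locus overlaps Rnf34 on the opposite strand over 627 bases and an antisense RNA over 470. How much of this is exonic was not determined. Since the libraries were not directional, the strand of reads from the shared bases cannot be told apart. Rnf34 had at most 174 counts and the antisense RNA at most 36 in any library.

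The catalytic subunits were not called by edgeR in either fraction comparison. Rnf2, which encodes RING1B (ENSMUSG00000026484, chromosome 1, 151458004 to 151500955), had group means of 19.4 ± 0.507 and 17.9 ± 4.2 CPM in unwounded total and cortical libraries and 19.9 ± 4.14 and 18.9 ± 2.23 CPM in wounded ones (SD, n = 3). Its log2 fold change was -0.11 (SE 0.19, interval -0.51 to 0.29, adjusted p = 0.808) in unwounded and -0.07 (SE 0.19, interval -0.47 to 0.32, adjusted p = 0.853) in wounded cells, both positive under library size alone (0.07 and 0.12). Ring1, which encodes RING1A (ENSMUSG00000024325, chromosome 17, 34020792 to 34024680), had means of 23.1 ± 5 and 27.9 ± 2.19 CPM in unwounded and 27.4 ± 4.68 and 25.7 ± 1.95 CPM in wounded total and cortical libraries. The log2 fold change of Ring1 was 0.28 (SE 0.17, interval -0.08 to 0.64, adjusted p = 0.338) in unwounded cells, where voom with library quality weights called it higher (0.48, adjusted p = 0.0198). In wounded cells it was -0.09 (SE 0.17, interval -0.45 to 0.27, adjusted p = 0.776), and 0.14 under library size alone. Libraries of the compared groups overlapped for both genes. From gene start to gene end, Rnf2 overlaps Trmt1l on the opposite strand over 158 bases, and Trmt1l reached 830 counts.

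Usp7, a deubiquitinase with many substrates besides this complex, was the only partner called in either fraction comparison by the main edgeR test. Usp7 (ENSMUSG00000022710, chromosome 16, 8689595 to 8792308) stood at 68.1, 79.8 and 106 CPM in wounded total and 123, 117 and 122 CPM in wounded cortical libraries, which did not overlap. It was 1.43-fold higher in the cortical fraction (log2 fold change 0.51, SE 0.16, interval 0.18 to 0.84, adjusted p = 0.035). The edgeR call was lost without wounded total replicate 2 (adjusted p = 0.118) or any one of wounded cortical replicates 1, 2 and 3 (0.0975, 0.0768 and 0.094), and with the gene length trend removed (0.32, adjusted p = 0.259). In unwounded cells Usp7 stood at 80.2, 80.6 and 109 CPM in the total and 109, 109 and 138 CPM in the cortical libraries. The total library at 109 met the lower end of the cortical range, and the log2 fold change was 0.40 (SE 0.16, interval 0.07 to 0.73, adjusted p = 0.103). That value was called by edgeR without unwounded total replicate 3 (0.56, adjusted p = 0.0338), wounded total replicate 1 (0.40, 0.0206) or wounded total replicate 3 (0.42, 0.0404). With all 12 libraries edgeR called it under library size alone (0.58, adjusted p = 0.012), with no filter (0.41, 0.0139) and with a replicate block (0.41, 0.0291).

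Rybp, whose product binds the RING subunits and stimulates ubiquitination of H2A, had the lowest counts of the 8 genes, 11 to 51 per library. Rybp (ENSMUSG00000072872, chromosome 6, 100228565 to 100287485) stood at 2.24, 1.75 and 1.65 CPM in unwounded total and 0.782, 1.09 and 1.12 CPM in unwounded cortical libraries. In wounded cells it stood at 2.43, 1.63 and 0.674 CPM in the total and 0.937, 0.818 and 1.03 CPM in the cortical libraries. All unwounded cortical values were below all unwounded total values, whereas the wounded groups overlapped. At this depth the intervals were wide: the log2 fold change was -0.93 (SE 0.65, interval -2.30 to 0.45, adjusted p = 0.425) in unwounded and -0.76 (SE 0.64, interval -2.12 to 0.60, adjusted p = 0.483) in wounded cells.

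**Figure D2:**
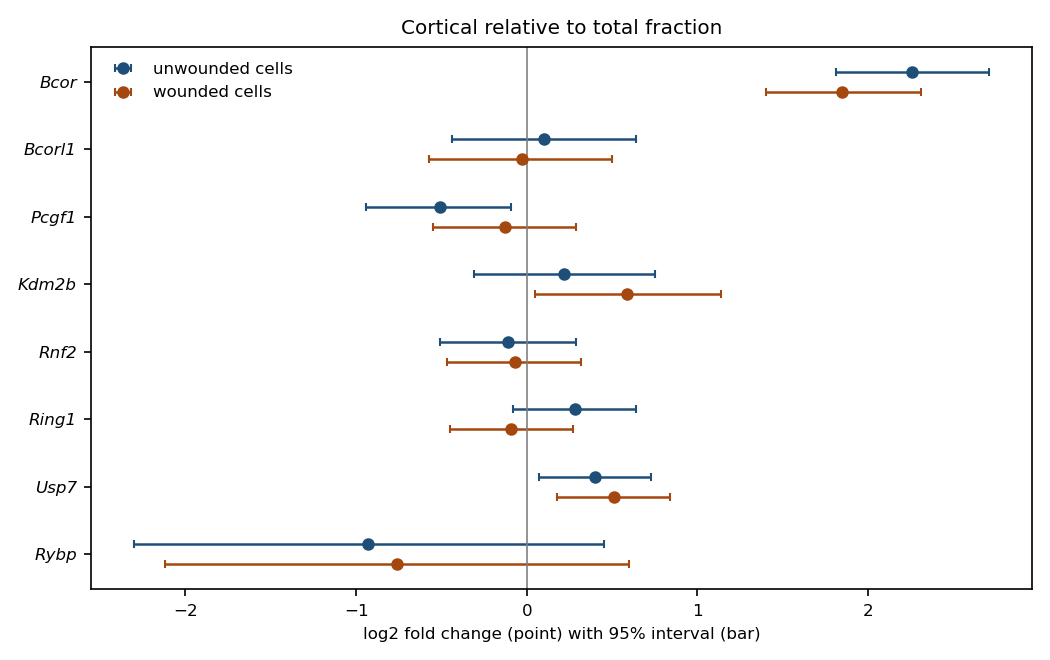
Cortical-over-total log2 fold changes (points) with 95% intervals (bars) of the 8 genes in unwounded and wounded cells. The intervals of Bcor begin at 1.81 and 1.40, and no partner's interval reaches above 1.14. Bcor was chosen by these values, so the gap is a description.

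Counted over the 7 partners, 4 had a positive log2 fold change in unwounded cells and 2 in wounded cells. In unwounded cells 0 of the 7 were called by edgeR, against 14.2% of all genes tested (6.62% higher, 7.59% lower), while 2 (Pcgf1 and Usp7) had an unadjusted p under 0.05. DESeq2 and limma-trend on FPKM also called 0 of them, and voom with library quality weights called 3 (Ring1 and Usp7 higher, Pcgf1 lower). Over all 13571 genes DESeq2, limma-trend on FPKM and voom called 2221, 1633 and 3708 there. In wounded cells 1 of the 7, Usp7, was called by edgeR, against a background of 15.7% of genes called in either direction and 7.62% called higher. The median log2 fold change of the partners was 0.10 in unwounded and -0.07 in wounded cells, beside 0.00 and 0.04 for all genes tested. Groups without overlap were found for 2 of 7 partners (both lower) in unwounded cells, where 36.2% of all genes had such groups, and for 1 of 7 in wounded cells, where 29.2% had. The upper interval ends of the partners, at most 0.75 in unwounded and 1.14 in wounded cells, lay below the lower ends for Bcor. That difference is a description, since Bcor was chosen for it.

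Cortical log2 fold changes rose with gene length across all genes tested (Spearman rho 0.335 in unwounded and 0.366 in wounded cells, across genes, which are not independent replicates). Bcor, Bcorl1, Kdm2b and Usp7 are the long members, and Bcor was set beside genes of like length. The 555 genes of 8000 to 9000 bases had a median log2 fold change of 0.18 in unwounded and 0.22 in wounded cells, and 1 and 6 of them were above Bcor. After each library was corrected for its trend on gene length, the log2 fold change of Bcor was 2.07 in unwounded and 1.65 in wounded cells. Bcorl1 then stood at -0.09 in unwounded cells and Kdm2b at -0.02.

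**Figure D3:**
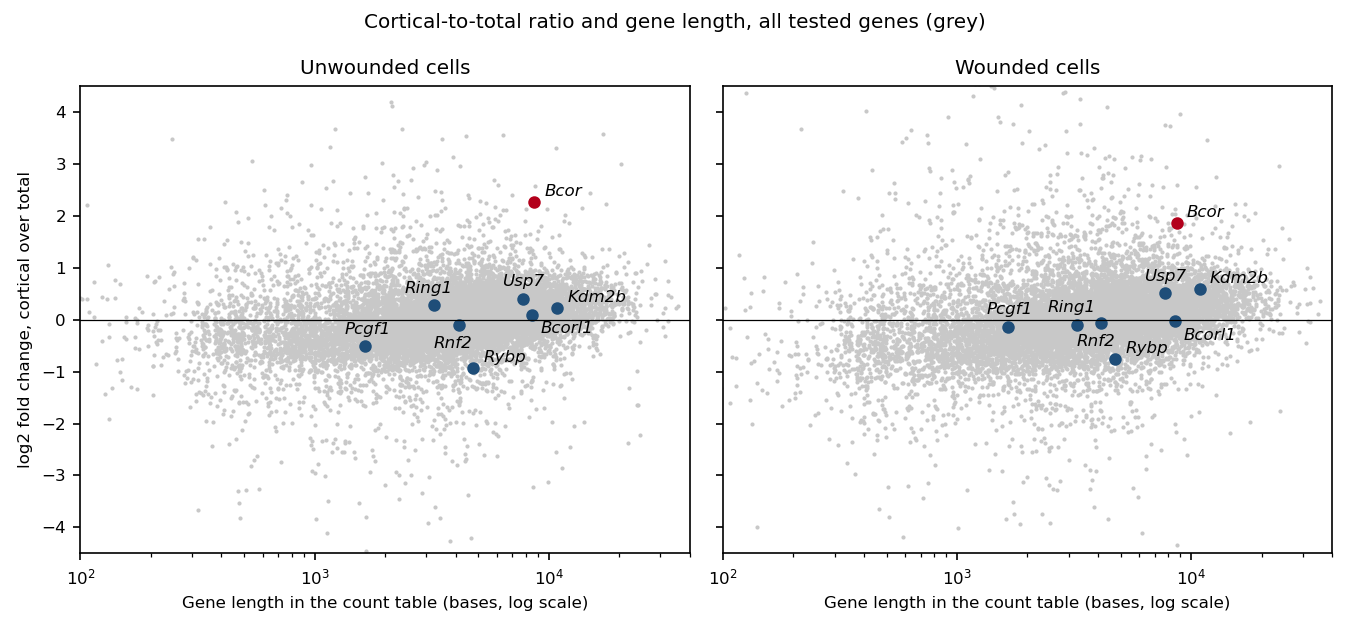
Cortical-over-total log2 fold change against gene length in bases (log axis) for the 13571 genes tested (grey) with the 8 genes marked; 57 genes in the unwounded and 82 in the wounded panel lie outside the axes. Bcor lies near the top of the genes of its length, at 2.26 and 1.85, while Bcorl1, of nearly the same length, lies at 0.10 and -0.03.

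Read per kilobase of gene length, the members differed widely in level, and Bcor held a higher place among them in the cortical than in the total fraction. That shift follows from the value by which Bcor was chosen. The places also depend on the length used: Kdm2b has 10869 bases in the count table and 5180 in its transcript with the longest coding sequence. For Bcor these lengths are 8666 and 6941 bases. In unwounded total libraries the order was Pcgf1 (18.4 ± 2.56 CPM per kilobase, SD, n = 3), Usp7 (11.6 ± 2.14), Ring1 (7.11 ± 1.54), Rnf2 (4.71 ± 0.123), Kdm2b (1.56 ± 0.391), Bcorl1 (1.03 ± 0.211), Bcor (0.846 ± 0.193) and Rybp (0.396 ± 0.0664). The libraries of Kdm2b overlapped those of Bcorl1, and those of Bcorl1 overlapped those of Bcor, whereas the other neighbours did not overlap. In the unwounded cortical libraries Bcor stood at 4.08 ± 0.121 CPM per kilobase, overlapping Rnf2 at 4.33 ± 1.02, above Kdm2b (1.82 ± 0.058) and Bcorl1 (1.11 ± 0.216). Usp7 at 15.3 and Pcgf1 at 13 overlapped at the top of that order. After wounding, Bcor was the seventh of 8 in the total fraction at 0.605 ± 0.0398 and the fifth in the cortical fraction at 2.19 ± 0.62 CPM per kilobase.

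The wound comparisons asked whether the same mRNAs changed with wounding inside each fraction. They share libraries with the comparison by which Bcor was chosen. The p-values of Bcor for wounding, and for the interaction below, are therefore not independent of that choice. In the cortical fraction Bcor was 1.86-fold lower in wounded cells, from 35.3 ± 1.05 to 18.9 ± 5.37 CPM (SD, n = 3), with no overlap between the groups (log2 fold change -0.90, SE 0.20, interval -1.32 to -0.47, adjusted p = 0.0238). It was the only one of the 8 genes called by edgeR there, against 2.48% of all genes tested (1.6% higher, 0.884% lower). The edgeR call was lost without any one of unwounded cortical replicates 1, 2 and 3 (adjusted p = 0.0801, 0.0807 and 0.0962) and without wounded cortical replicate 1 (0.111) or 2 (0.123), while the log2 fold change stayed between -1.15 and -0.76 in the 12 fits that each left out 1 library. In the total fraction Bcor stood at -0.49 (SE 0.22, interval -0.95 to -0.03, adjusted p = 0.144), again with groups that did not overlap.

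Among the partners, Kdm2b fell after wounding in the total fraction, from 17.0 ± 4.25 to 9.48 ± 4.08 CPM (log2 fold change -0.84, SE 0.26, interval -1.38 to -0.30, adjusted p = 0.0339). The groups overlapped, since wounded total replicate 1 (13.9 CPM) was above unwounded total replicate 3 (12.8 CPM). Kdm2b was the only one of 8 genes called by edgeR in that comparison, where 15.6% of all genes were called in either direction and 7.2% lower. Without wounded total replicate 1 its log2 fold change was -1.23 with an edgeR adjusted p of 2.47e-04. The call was lost without unwounded total replicate 1 (-0.64, adjusted p = 0.185) or 2 (-0.86, 0.0766), and without wounded total replicate 2 (-0.77, 0.111) or 3 (-0.60, 0.134). In the cortical fraction Kdm2b stood at -0.47 (SE 0.25, interval -1 to 0.06, adjusted p = 0.361), with no overlap between the groups.

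The other partners were not called by edgeR for wounding in either fraction. Their log2 fold changes in the total fraction ran up to 0.25, the value of Ring1 (adjusted p = 0.358; voom with quality weights called it higher, 0.61, adjusted p = 0.00132), and the partner median was -0.09 beside -0.03 for all genes. In the cortical fraction the partners ran from -0.47 to 0.29, the latter being Pcgf1 (adjusted p = 0.509), with a median of -0.09 beside 0.02 for all genes. There edgeR, DESeq2, limma-trend on FPKM and voom with quality weights each called 0 of the 7, and edgeR gave 0 an unadjusted p under 0.05. Groups without overlap were found for 0 of 7 partners in the total and 1 of 7 in the cortical fraction, against 32.1% and 26.9% of all genes.

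**Figure D4:**
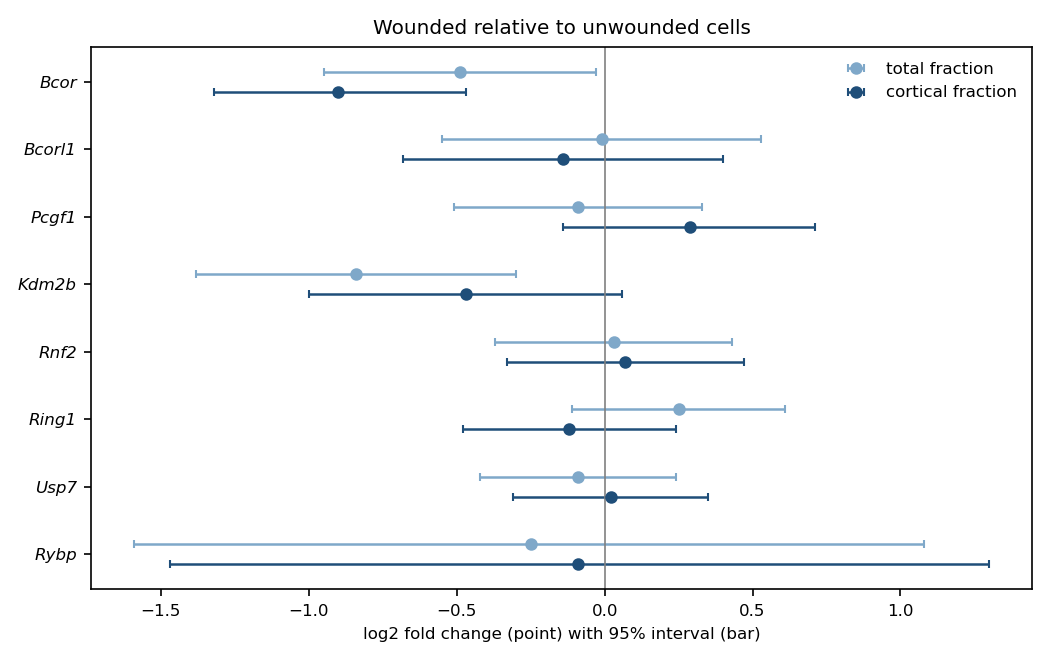
Wounded-over-unwounded log2 fold changes (points) with 95% intervals (bars) of the 8 genes in the total and in the cortical fraction. Bcor in the cortical fraction (-0.90) and Kdm2b in the total fraction (-0.84) are the values that edgeR called.

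Whether the cortical-to-total ratio itself depended on wounding was tested with the interaction term. For Bcor the ratio was lower after wounding by a log2 difference of -0.41 that did not pass (SE 0.30, interval -1.03 to 0.22, adjusted p = 0.746). Of the 8 genes 0 were called by edgeR, against 0.125% of all genes, and 0 had an unadjusted p under 0.05. DESeq2 and limma-trend on FPKM also called 0, and voom with quality weights called 1, Ring1 (-0.71, adjusted p = 0.0436, against -0.37 and 0.703 in edgeR). Over all 13571 genes voom called 855 for the interaction. The partners ran from -0.37 (Ring1) to 0.38 (Pcgf1). A wound-dependent cortical-to-total ratio of these mRNAs was not detectable in the edgeR test at this depth and number of libraries.

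Over the 12 libraries, the log2 CPM of Usp7 followed that of Bcor most closely among the partners (Pearson r 0.725, above 90.4% of the 8855 protein-coding genes that averaged 100 or more counts), then Kdm2b (0.605, above 82.7%). Ring1 (0.17), Bcorl1 (0.109), Rnf2 (-0.285), Rybp (-0.532) and Pcgf1 (-0.604) followed. These are descriptions without a test, since the libraries fall into 4 groups that share fraction or treatment. The 5 genes most like Bcor by the same measure were Cep170b (0.973), Pprc1 (0.97), Met (0.966), Zbtb16 (0.966) and Ppp1r13l (0.965). Cep170b went from 131 ± 12.7 to 572 ± 8.60 CPM from the unwounded total to the unwounded cortical libraries and from 128 ± 16.4 to 350 ± 22.5 CPM in wounded cells. Zbtb16, which encodes a zinc-finger repressor, went from 11.8 ± 2.37 to 32.5 ± 1.86 and from 12.3 ± 1.09 to 25.6 ± 4.16 CPM. Met, the receptor of hepatocyte growth factor, went from 91 ± 4.67 to 133 ± 9.96 and from 86 ± 4.74 to 118 ± 11 CPM, so a high correlation came with a smaller cortical difference.

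A further list held Skp1a and Yaf2, of PRC1.1, and Bcl6, the transcription factor from which BCOR takes its name. Skp1a, the mouse Skp1 gene and also an adaptor of SCF ubiquitin ligases, was lower in the cortical fraction, from 173 ± 20.9 to 111 ± 15.6 CPM in unwounded cells (log2 fold change -0.64, SE 0.14, adjusted p = 0.00569) and from 141 ± 26 to 100 ± 6.79 CPM in wounded cells (-0.50, SE 0.14, adjusted p = 0.0241). Yaf2, the paralog of Rybp, was the more abundant of that pair, at 18.4 ± 3.26 CPM per kilobase against 0.396 for Rybp in unwounded total libraries. It fell after wounding in the total fraction, from 34.4 ± 6.10 to 23.2 ± 6.35 CPM (-0.57, SE 0.19, adjusted p = 0.0477). Bcl6 was higher in the cortical fraction of wounded cells, 25.1 ± 2.41 against 15.7 ± 4.38 CPM (0.68, SE 0.20, adjusted p = 0.0321), and stood at 0.48 with an adjusted p of 0.0617 without wounded total replicate 1.

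Beyond PRC1.1, 4 lists covered canonical PRC1 (11 genes tested), other variant PRC1 (13), PRC2, which methylates histone H3 (10 of 11, Phf19 not tested), and enzymes that remove ubiquitin from H2A, with their cofactors (9). With the 3 genes above they made 46 tested genes. In unwounded cells edgeR called 0 of these higher and 1 (Skp1a) lower in the cortical fraction, against 6.62% and 7.59% of all genes. Of the 46, 9 had an unadjusted p under 0.05 in edgeR. DESeq2 called 2 higher and 1 lower, limma-trend on FPKM 0 and 1, and voom with quality weights 7 and 3. Over all 13571 genes these tools called 1107, 777 and 1775 higher and 1114, 856 and 1933 lower, in the same order. The median of the 46 was 0.10, beside 0.00 for all genes. In wounded cells 9 were called higher and 1 lower, against 7.62% and 8.03% of all genes, with a median of 0.30 beside 0.04. DESeq2 called 10 higher and 1 lower there, limma-trend on FPKM 2 and 1, and voom with quality weights 21 and 2. Over all 13571 genes these tools called 1090, 624 and 2240 higher and 1435, 1023 and 2201 lower, in the same order. The list medians there were 0.35 for canonical PRC1 (3 called higher), 0.27 for other variant PRC1 (2), 0.19 for PRC2 (1), 0.36 for the H2A deubiquitinases (2) and 0.15 for Skp1a, Yaf2 and Bcl6 (1 higher, 1 lower).

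The named members of those lists in wounded cells were modest beside Bcor. Usp16, an H2A deubiquitinase, stood at 6.28 ± 0.483 CPM in total and 16.3 ± 8 CPM in cortical libraries (log2 fold change 1.37, SE 0.31, adjusted p = 0.00726), the only one of the 9 named genes to keep its call in all 12 fits that left out 1 library. Its wounded cortical libraries stood at 7.05, 21.4 and 20.4 CPM, the first close to wounded total replicate 1 at 6.82 CPM. The Usp16 call was lost in edgeR with only the groups compared (adjusted p = 0.0552). It was also lost in limma-trend on log2(FPKM + 1) (0.0642) and log2(FPKM + 0.1) (0.0617). Cbx7, a chromodomain subunit of canonical PRC1, went from 3.38 ± 0.97 to 7.24 ± 2.19 CPM (1.09, SE 0.31, adjusted p = 0.0267), and Phc3, a polyhomeotic subunit, from 16 ± 1.22 to 24 ± 1.71 CPM (0.58, adjusted p = 0.0299). Asxl2 (0.83, adjusted p = 0.0138), Mga (0.72, adjusted p = 0.03), Mtf2 (0.71, adjusted p = 0.0175) and Auts2 (0.49, adjusted p = 0.0291) were also called higher by edgeR. Apart from Usp16, each of the 9 lost its call without at least 1 of wounded total replicates 2 and 3 or the wounded cortical libraries, with a highest adjusted p of 0.0767 (Asxl2) to 0.157 (Auts2). After that correction for gene length, 8 of the 9 were no longer called, among them Auts2 (0.07, adjusted p = 0.811), Phc3 (0.21, adjusted p = 0.544), Mga (0.38, adjusted p = 0.332), Cbx7 (0.93, adjusted p = 0.0808) and Skp1a (-0.38, adjusted p = 0.106).

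In the total fraction edgeR called 9 of the 46 genes after wounding, 1 higher and 8 lower, against 8.39% and 7.2% of all genes, with a median of -0.23 beside -0.03. DESeq2 called 3 higher and 7 lower, limma-trend on FPKM 0 and 3, and voom with quality weights 5 and 20. Over all 13571 genes these tools called 1527, 1154 and 2669 higher and 1074, 780 and 2537 lower, in the same order. Tfdp1, a dimerization partner of E2F factors, fell from 27.4 ± 4.12 to 10.8 ± 4.12 CPM (a log2 fold change of -1.35, SE 0.26, adjusted p = 0.00226). Pcgf6, the PCGF protein of another variant complex, fell from 7.20 ± 0.893 to 2.97 ± 0.552 CPM (-1.27, adjusted p = 0.00708), Usp16 from 15.8 ± 2.55 to 6.28 ± 0.483 CPM (-1.33, adjusted p = 0.00785), and Mtf2, a PRC2 accessory subunit, from 22.5 ± 1.32 to 11 ± 2.62 CPM (-1.03, adjusted p = 0.00148). These 4 kept their call in all 12 fits that left out 1 library. Ezh1, a catalytic subunit of PRC2, was the 1 gene that rose (0.67, adjusted p = 0.022). Its call was lost without unwounded total replicate 2 (adjusted p = 0.114) or 3 (0.0535) and without wounded total replicate 2 (0.0823) or 3 (0.118). Eed (-0.39, adjusted p = 0.0467), Yaf2 and Asxl3 (-2.46, adjusted p = 0.0453, with 0 counts in wounded total replicate 1) kept their calls in 4, 2 and 3 of those 12 fits, and the losses came from libraries of all 4 groups.

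In the cortical fraction edgeR called 0 of the 46 genes after wounding, against 2.48% of all genes. Of the 46, 3 had an unadjusted p under 0.05, and the median was -0.05 beside 0.02 for all genes. DESeq2, limma-trend on FPKM and voom with quality weights called 1, 0 and 1, against 736, 299 and 1316 of all 13571 genes. The interaction gave 0 edgeR calls, against 0.125% of all genes, with 5 of the 46 at an unadjusted p under 0.05. DESeq2 and limma-trend called 0 there and voom with quality weights 5, against 72, 10 and 855 of all genes. The largest cortical log2 fold change of any list gene was that of Asxl3 in wounded cells, 2.04, which did not pass (edgeR adjusted p = 0.0925), was singled out here after its value was seen, and rested on 0, 22 and 13 counts in the total libraries. Among called list genes the largest was that of Usp16, beside 2.26 and 1.85 for Bcor.

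**Figure D5:**
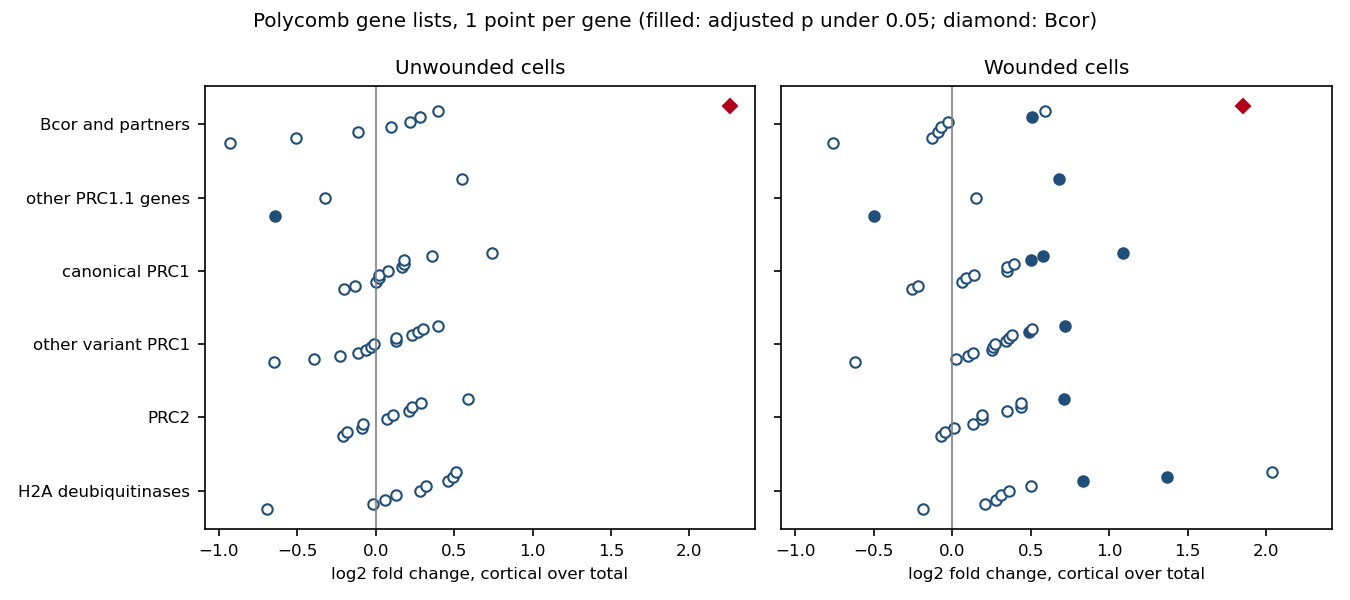
Cortical-over-total log2 fold changes of Bcor with its 7 partners and of the 46 tested genes of the 5 other Polycomb lists, one point per gene and one row per list, in unwounded and wounded cells; filled points have an adjusted p under 0.05 and the diamond is Bcor. All points lie below Bcor except Asxl3 in wounded cells (2.04, not called). The row of other PRC1.1 genes holds Skp1a, Yaf2 and Bcl6.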

How the data were processed

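The 12 libraries were made from polyadenylated RNA with random priming and without keeping strand, per the labels' protocols. The submitters' processing notes name CASAVA, HISAT2 and the build mm10, and the counting tool and annotation release are not given in the sources used here. The authors deposited whole-number counts per gene and a matching table of FPKM values, scaled by gene length and library size, with 1 column per library. Columns of other samples numbered 0. Of the gene identifiers, 54409 were in GENCODE M21 (GRCm38), 98.3% of them at the same coordinates.

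The main analysis used edgeR 4.0.16 under R 4.3.3 (filterByExpr, TMM, one mean per group over all 12 libraries, quasi-likelihood F tests). SE is the absolute log2 fold change divided by the square root of F. DESeq2 1.42.0, limma 3.58.1 on log2(FPKM + 1) and log2(FPKM + 0.1), voom with quality weights, RLE, upper quartile and library size scaling, no filter, a filter at 50 mean counts, only the groups compared, a replicate block, a loess gene length trend (span 0.5) removed with and without the block, and leaving out each library were alternatives. The pipelines were tested on simulated data. Log2 CPM for the correlations used a prior count of 2, and CPM per kilobase used the deposited gene length. Figures were drawn with matplotlib 3.10.9.

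The members and gene lists were chosen with earlier results of these data known. Named genes were the 8 members, from each other list and comparison up to 2 called genes in each direction with the largest log2 fold change, and the 5 protein-coding genes with at least 100 mean counts most correlated with Bcor.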

Additional observations from a re-analysis of the deposited data

How the results depend on the processing

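In both cortical comparisons the counts given here include Bcor. Bcor was chosen by those values, so its call there is not a test and only the calls of partners are. The number of the 8 genes called in the unwounded cortical comparison was 1 and became 2 under library size alone, 3 with no filter, with only the groups compared or with the replicate block, 4 with voom with library quality weights, and 1 to 3 when 1 library was left out. In the wounded cortical comparison it was 2 and became 1 with log2(FPKM + 1), log2(FPKM + 0.1), only the groups compared, the gene length trend removed, or the block with that trend removed, 3 with voom (adding Kdm2b), and 1 to 3 when 1 library was left out. For wounding in the total fraction it was 1 and became 0 under library size alone, with either FPKM pseudocount or with only the groups compared, 2 with voom, and 0 to 1 when 1 library was left out. For wounding in the cortical fraction it was 1 and became 0 with log2(FPKM + 0.1), where Bcor had an adjusted p of 0.0595, and 0 to 1 when 1 library was left out. For the interaction it was 0 and became 1 with voom. Signs reversed only for uncalled values: Bcorl1 in unwounded cells (-0.09 with the length trend removed, with or without the block, and -0.06 to 0.26 when 1 library was left out) and in wounded cells (0.20 under library size alone, -0.26 to 0.10 when 1 library was left out), Kdm2b in unwounded cells (-0.02 with the length trend removed), and Rnf2 in unwounded (0.07 under library size alone) and wounded cells (0.12 under library size alone, 0.07 with voom, -0.17 to 0.11 when 1 library was left out). The others were Pcgf1 in wounded cells (0.11 under library size alone, 0.07 with the length trend removed, with or without the block), Ring1 in wounded cells (0.14 under library size alone, -0.21 to 0.04 when 1 library was left out) and Pcgf1 after wounding in the total fraction (0.11 with voom, -0.19 to 0.09 when 1 library was left out). The cause of these changes was not tested. The cortical log2 fold change of Bcor ran from 1.47 to 2.44 in unwounded and 0.95 to 2.07 in wounded cells over 13 alternatives, lowest with log2(FPKM + 1). The FPKM of Bcor was 0.577 to 1.05 in the total and 1.72 to 4.22 in the cortical libraries, and the part of the pseudocount was not tested. Library size alone put the median of all genes at 0.19 and 0.25 in the cortical comparisons, against 0.00 and 0.04, and the share of calls that were higher at 77.1% and 80.9%, against 46.6% and 48.7%. For wounding that share was 39.1% in the total and 54.3% in the cortical fraction, against 53.8% and 64.4%. With the length trend removed it was 37.6% in the wounded cortical comparison. Over all genes, 1928, 2124, 2116, 337 and 17 were called in the 5 comparisons in the order given, against 3151, 3475, 3502, 1276 and 413 without wounded total replicate 1 and 3708, 4441, 5206, 1316 and 855 with voom. With only the groups compared the first 4 became 2979, 938, 1117 and 1377, and the last 2 became 736 and 72 with DESeq2 and 559 and 138 with no filter. With other single libraries left out the lowest counts were 949, 1084, 1128, 108 and 4. Whether replicate numbers pair the libraries is not given in the labels, and 3 pairs per comparison cannot settle it. Same-numbered libraries deviated together with a mean correlation of -0.0214, -0.012, 0.0507 and 0.00322 in the 4 comparisons of groups. In these, 0, 1, 4 and 3 of 6 libraries correlated best with their own number. With the replicate block, as an edgeR fit with 3 pairs, the partners called in unwounded cells were Usp7 (0.41, adjusted p = 0.0291) and Pcgf1 (-0.52, adjusted p = 0.0472). All genes called with the block numbered 1857, 1985, 2038, 276 and 10. A mean of at least 50 counts removed Rybp, whose 11 to 51 counts limit what could be detected.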
